A study of Mus musculus with 8 samples.

Results

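Integrins are the cell's main receptors for the extracellular matrix, and the proteins of the focal adhesion core tie them to actin. This group held 37 genes, taken from the table by symbol from a given list: 17 integrin alpha chains, 8 integrin beta chains and 12 adhesion core genes. All 37 were among the 21649 genes of the table, and all 37 passed the filter on low values. They were measured by RNA sequencing in 8 libraries of sorted cells that the labels call non-vascular smooth muscle cells, 3 from bladder, 3 from intestine and 2 from lung of mice. In all 3 groups the genotype is Cspg4-Dre/Acta2-CreERT/R26-GFP, and tamoxifen went into the peritoneum for 3 days at 0.75 mg per 10 g of body weight. Dre and Cre are recombinases, CreERT is a form of Cre that tamoxifen switches on, Cspg4 and Acta2 name the genes that drive Dre and CreERT, and R26-GFP is a reporter at the Rosa26 locus. Neither age, sex nor the number of animals behind a library is given in the sources used here. A p-value therefore refers to library-to-library spread, part or all of which may be technical.

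An integrin is a pair of 1 alpha and 1 beta chain, and the pair decides the ligand. Chains alpha 1, 2, 10 and 11 pair with beta 1 and bind collagens, alpha 3, 6 and 7 serve as laminin receptors, and alpha 5, 8 and V bind the RGD sequence of fibronectin, nephronectin or vitronectin. Inside the cell talin and kindlin activate the beta tail, vinculin reinforces the link from talin to actin, the complex of ILK, PINCH and parvin adds a further link, and paxillin, zyxin and focal adhesion kinase signal from the site. In smooth muscle these proteins line the dense plaques, through which the contractile filaments pull on the matrix and on neighbouring cells.

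Values are the deposited whole numbers, whose spacing is that of read counts scaled by 1 constant per library, and log2 differences are on the log2(value + 1) scale with their standard error (SE). A gene was called higher or lower at a Benjamini-Hochberg adjusted p under 0.05 over 18097 genes (limma, all 8 libraries in 1 fit). Bladder libraries held 9720000 to 10960000 reconstructed reads, those of intestine and lung 12020000 to 13620000, and 3 reads, the most that a listed 0 allows, were worth 2.47 to 3.81 in value (counting error only). Log2 values correlated across genes at 0.964 to 0.973 between libraries of 1 organ and at 0.844 to 0.904 between organs. Beside the labelled cell type, 12 smooth muscle genes were read in every library. Their sum was 22001 to 26671 in bladder, 36595 to 39566 in intestine and 38293 to 39209 in lung. The sum of 12 fibroblast genes was 77448 to 87375, 51304 to 55273 and 35943 to 40578 in that order. Sums of different genes do not give shares of cells, so they do not settle the cell type. Fibroblast, endothelial, epithelial and leukocyte genes were read as well, and their sums are given beside some members only. A member without a sum may share the order of a list too. For example, Itga1, Tln1, Vcl and Lims1 were lowest in bladder, as were the smooth muscle and endothelial sums, whose part was not tested. In bulk RNA, fewer cells of a type and less RNA per cell cannot be told apart.

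Members with large differences between organs included the alpha chains Itga1, Itga3, Itga4, Itga7, Itga8 and Itga11, while beta 1 and beta 5 made up most of the beta chains in each organ. Of 17 alpha chains 9 were higher and 2 lower in intestine than in bladder, and 9 and 2 in lung. Of 8 beta chains these counts were 3 and 2, and 1 and 2, and of 12 core genes 3 and 2, and 6 and 2. In limma's F test 31 of 37 members differed among the 3 organs, against 62.9% of all genes tested. Between intestine and bladder 21 members passed the test (51.9% of all genes tested), 15 of them higher in intestine and 6 lower (28.7% and 23.3% of all genes), with a median log2 difference of 0.32 for the members and 0.06 for all genes. Between lung and bladder 22 passed (41.0% of all genes), 16 of them higher in lung and 6 lower (19.2% and 21.8%), with medians of 0.55 and 0. Between lung and intestine 20 passed (39.5% of all genes), 9 of them higher in lung and 11 lower (15.9% and 23.6%), with medians of 0.09 and -0.04. The 3 comparisons share their libraries in pairs and are not independent.

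The counts were repeated under other scalings. Undoing the deposited scaling multiplies each library by 1 constant and so moves all genes alike. The median of all genes went from 0.06 to 0.45 for intestine against bladder, from 0 to 0.48 for lung against bladder, and from -0.04 to 0.07 for lung against intestine. Members higher and lower became 22 and 1, 23 and 1, and 11 and 9, and the genes called lower than bladder over the whole table went from 4210 to 1935 in intestine and from 3952 to 1907 in lung. A difference that turns sign in that setting is turned by this common shift. The constants also differ between libraries of an organ, so the spread changes too. For calls that were lost, the parts of shift and spread were not tested. Equal totals gave 17 and 6, 18 and 4, and 9 and 10. Quantile normalization gave 18 and 5, 17 and 3, and 12 and 8, and scaling from genes of low read density gave 14 and 9, 16 and 7, and 15 and 9. Itga11 was lower in lung than in bladder in all 4 settings. Genes with at least 1 read per nt of exon, among them the members Itgb1 and Itgb5, lay at a median log2 of -0.40 in intestine relative to bladder, and of -0.42 in lung. At 0.3 to 1 read per nt, where 11 members lay, these medians were -0.21 and -0.08.

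**Figure D1:**
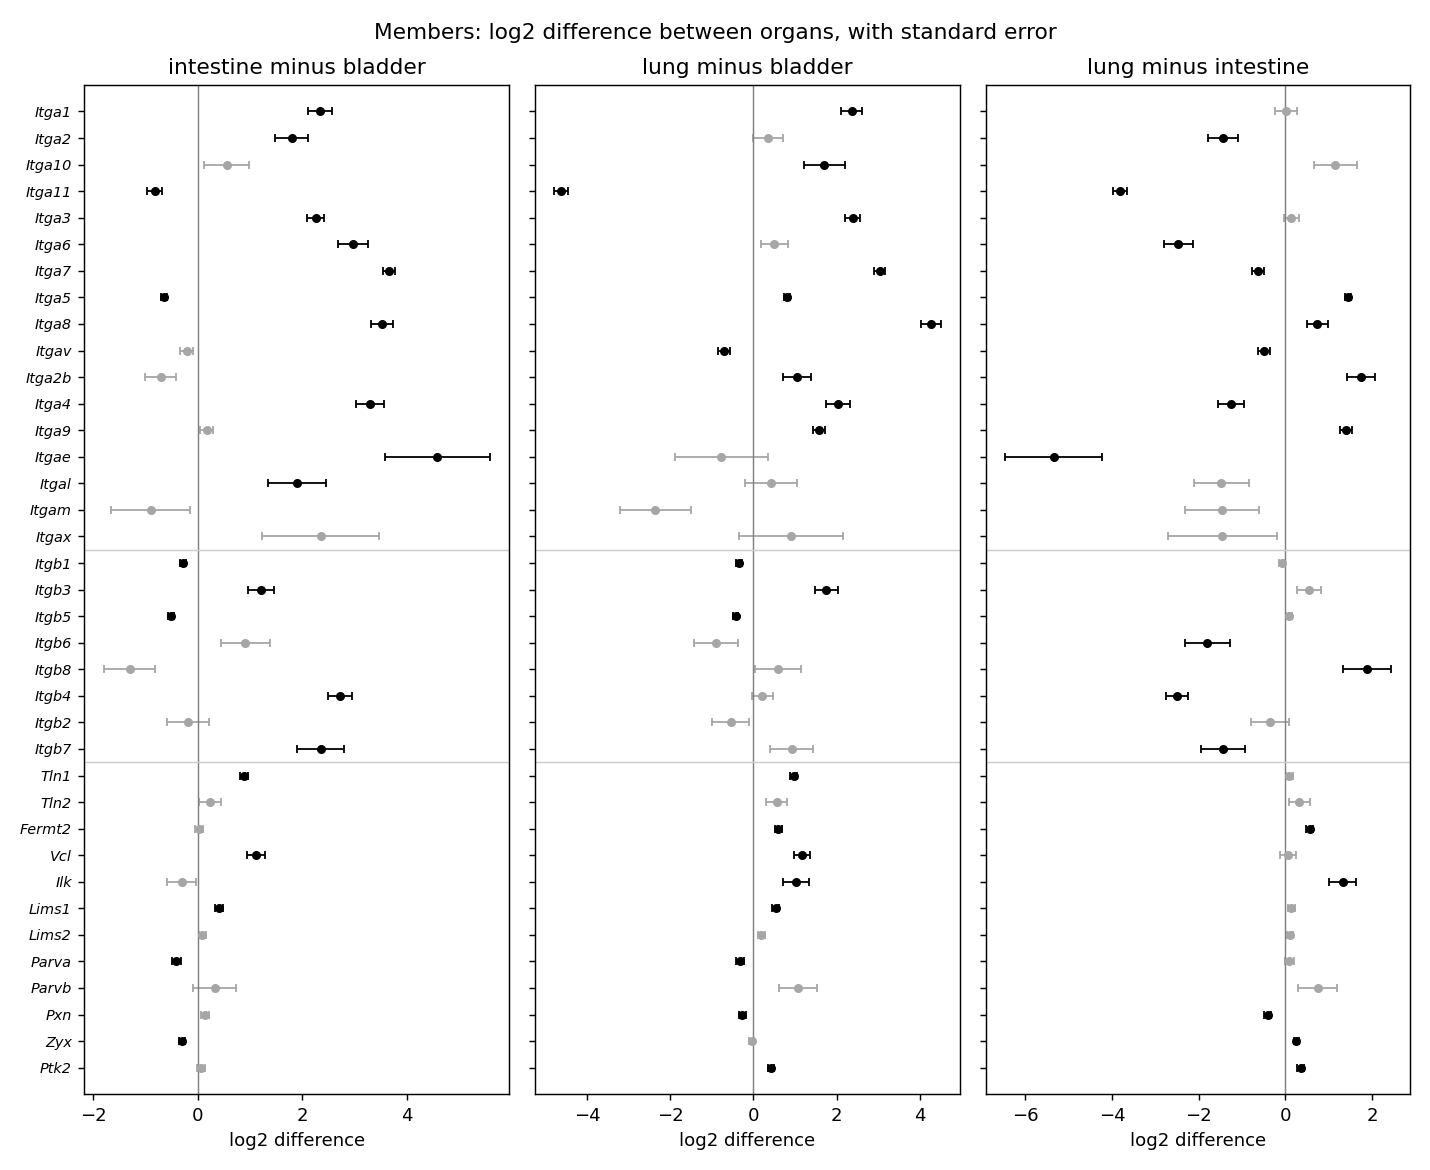
Log2 difference (x axis, log2(value + 1) scale) of each of the 37 members between organs, with 1 standard error; black marks members with a limma adjusted p under 0.05, grey the others, and lines part alpha chains, beta chains and core. Itgae has the largest differences (-5.35 for lung minus intestine and 4.58 for intestine minus bladder, at few reads), Itga8 at 4.26 and Itga11 at -4.63 are the largest for lung minus bladder, and the core genes lie between -0.41 and 1.33.

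The make-up of the alpha chains was compared per kb of exon, as each chain's share of the summed alpha chain value within a library. In bladder Itga5 held 35.4% ± 1.23 (SD, n = 3) and Itga11 33.1% ± 2.66, ahead of Itga9 at 9.62% ± 0.436 and Itgav at 9.20% ± 1.11. In intestine Itga7 held the largest share at 21.5% ± 1.43 (SD, n = 3), followed by Itga8 at 15.7% ± 1.58, Itga5 at 14.99% ± 0.502 and Itga11 at 12.4% ± 1.65. The shares of Itga8 and Itga5 there did not differ beyond their spread. In lung Itga5 held 33.5% ± 8.55 (SD, n = 2), Itga8 21.4% ± 5.98, Itga9 15.2% ± 0.834 and Itga7 11.2% ± 0.516, while Itga11 held 0.704% ± 0.0400. The lung shares of Itga5 and Itga8 come from the same 2 libraries. Their separate spreads therefore do not measure the difference between them, which was not tested. A constant per library does not change shares within it. Quantile normalization can, and the shares were not tested under it.

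Among the beta chains, Itgb1 held 51.0% ± 0.564 of the summed beta chain value per kb in bladder, 49.7% ± 0.932 in intestine and 49.4% ± 1.21 in lung. Itgb5 followed at 44.9% ± 1.08, 37.5% ± 0.389 and 41.5% ± 0.483. No other beta chain reached 6% in an organ mean, the next being Itgb3 at 5.52% ± 2.55 in lung and Itgb4 at 5.49% ± 0.511 in intestine. The summed value per kb over the alpha chains was 2011 ± 85.3 in bladder, 3041 ± 116 in intestine and 3817 ± 664 in lung. Over the beta chains it was 3732 ± 223, 3132 ± 91.2 and 3004 ± 13.9. Exon lengths are of all annotated exons of a gene, which may be longer than the transcript read.

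**Figure D2:**
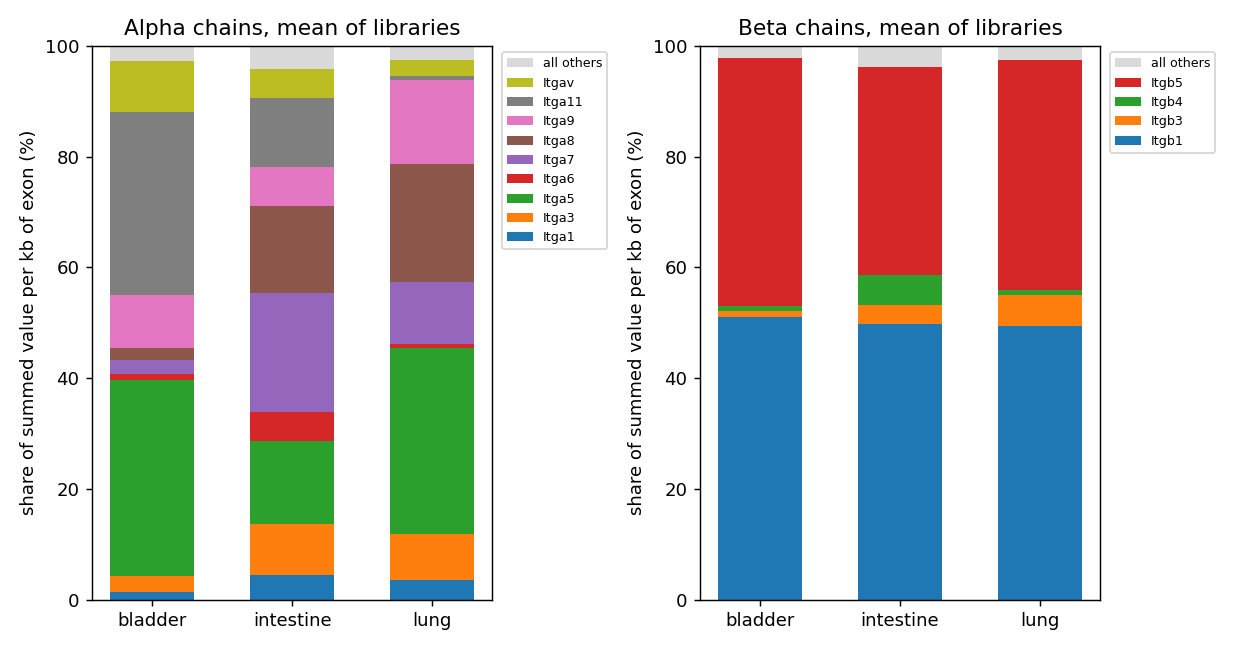
Share (y axis, percent) of each chain in the summed value per kb of exon over the 17 alpha chains (left) and the 8 beta chains (right), as the mean of the libraries of each organ; chains that stay under 3% in each organ are joined in grey. Itga11 takes 33.1% in bladder and 0.704% in lung, and Itga7 and Itga8 are thin bands in bladder and broad in intestine and lung.

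Among collagen receptors, Itga1 and Itga11 went opposite ways. Itga1 encodes the alpha chain of the collagen IV receptor of muscle (mm39, chromosome 13, 115089632 to 115238500). Its values were 699, 348 and 482 in bladder, 2640, 2576 and 2256 in intestine, and 3005 and 2128 in lung. All intestine and lung libraries lay above all bladder libraries. The difference from bladder was 2.34 (SE 0.23, limma adjusted p = 2.80e-05) in intestine and 2.37 (SE 0.25, adjusted p = 8.57e-05) in lung, and intestine and lung overlapped.

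Itga11 encodes the receptor chain for fibrillar collagens that is known from mesenchymal cells and fibroblasts (mm39, chromosome 9, 62585108 to 62691264). It read 3290, 3185 and 3780 in bladder, 1653, 2118 and 2044 in intestine, and 161 and 116 in lung. No library of an organ overlapped with those of another. Lung was 24.8-fold lower than bladder (log2 -4.63, SE 0.16, adjusted p = 1.66e-07) and 14.0-fold lower than intestine (adjusted p = 3.89e-07). Intestine was 1.77-fold lower than bladder (log2 -0.82, SE 0.14, adjusted p = 0.000960), a call that was lost with the deposited scaling undone (log2 -0.43, adjusted p = 0.0691). The summed value of 12 fibroblast genes moved the same way, at 77448 to 87375 in bladder, 51304 to 55273 in intestine and 35943 to 40578 in lung. All 12 were lower in intestine and in lung than in bladder, with Pdgfra at 1203 and 1244 in lung against 9933 to 11091 in bladder and Dcn at 2690 and 2970 against 4461 to 5150. The part of fibroblast RNA in the Itga11 difference was not tested.

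Itga2, the collagen receptor chain of platelets and epithelium, read 51, 104 and 48 in bladder, 208, 251 and 211 in intestine, and 70 and 94 in lung. Only the intestine libraries stood apart, 3.47-fold above bladder (adjusted p = 0.00106) and 2.72-fold above lung (adjusted p = 0.00969, and 0.0682 with quantile normalization). The epithelial sum was highest in the same libraries, at 18225 to 19508 in intestine against 4692 to 7314 in bladder and 796 to 1329 in lung, and its part was not tested. Itga10, known from cartilage, stayed under 80 in all libraries. Its lung values of 58 and 77 exceeded the 13 to 31 of bladder (log2 1.71, SE 0.49, adjusted p = 0.0201), a call that was lost without bladder replicate 2 (adjusted p = 0.0578), without lung replicate 2 (adjusted p = 0.103) and with the replicate number as a block (adjusted p = 0.0521).

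**Figure D3:**
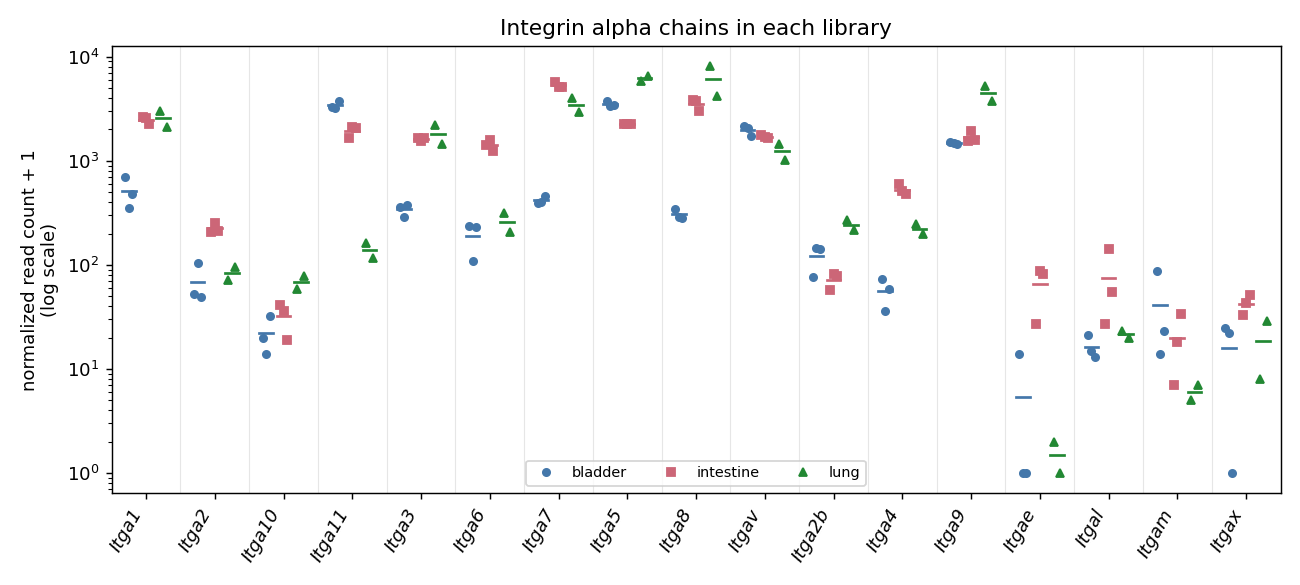
Value + 1 (y axis, log scale) of the 17 integrin alpha chains, ordered as collagen, laminin, RGD, alpha 4 and 9, and leukocyte chains; points are libraries and bars organ means. The bladder libraries lie below all others for Itga1, Itga3, Itga4, Itga7 and Itga8, and the lung libraries below all others for Itga11.

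The laminin receptor chains Itga3, Itga6 and Itga7 all exceeded bladder in intestine, and Itga3 and Itga7 did so in lung too. Itga7, the laminin receptor chain of muscle (mm39, chromosome 10, 128769645 to 128794155), read 393, 403 and 460 in bladder, 5660, 5111 and 5101 in intestine, and 4003 and 2928 in lung. The organs did not overlap. Intestine was 12.6-fold above bladder (log2 3.66, SE 0.12, adjusted p = 1.12e-07) and lung 8.18-fold (log2 3.03, SE 0.13, adjusted p = 5.07e-07), and lung was 1.54-fold below intestine (adjusted p = 0.00448).

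Itga3, which pairs with beta 1 to bind laminins of basement membranes, read 361, 287 and 375 in bladder, 1655, 1543 and 1647 in intestine, and 2196 and 1437 in lung. Both organs lay above bladder, by 4.75-fold (adjusted p = 4.04e-06) and 5.23-fold (adjusted p = 9.98e-06), and they overlapped with each other. Itga3 is known from epithelia as well. The sum of 12 epithelial genes was 4692 to 7314 in bladder, 18225 to 19508 in intestine and 796 to 1329 in lung. The smooth muscle and endothelial sums were lowest in bladder, as Itga3 was. The part of RNA from any of these cells was not tested.

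Itga6 and Itgb4, which pair as the hemidesmosome receptor of epithelia, were both high in intestine alone. Itga6 read 235, 108 and 228 in bladder, 1424, 1584 and 1230 in intestine, and 311 and 207 in lung. Itgb4 gave 195, 125 and 247 in bladder, 1116, 1288 and 1208 in intestine, and 181 and 247 in lung. Bladder and lung overlapped for each. Intestine was 7.79-fold above bladder for Itga6 (adjusted p = 3.03e-05) and 6.57-fold for Itgb4 (adjusted p = 1.32e-05), and 5.52-fold and 5.66-fold above lung (adjusted p = 0.000310 and 7.07e-05). Epithelial, endothelial and enteric neuron and glia genes had their highest sums in the same libraries, endothelium with 18734 to 20449 in intestine against 6722 to 8746 in bladder and 10920 to 11890 in lung. Enteric neuron and glia genes summed to 4032 to 4800, 609 to 779 and 950 to 1518 in that order. Genes of that list differed among themselves: Sox10 read 190 to 200 in intestine, 13 to 18 in bladder and 0 in lung, and S100b 109 to 141, 16 to 18 and 164 to 228. Their part in the Itga6 and Itgb4 differences was not tested.

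Among the RGD receptors, Itga8 was the member furthest above bladder in lung by log2 difference. Itga8 is the chain that pairs with beta 1 and binds nephronectin, and it is known from smooth muscle and kidney mesenchyme (mm39, chromosome 2, 12111443 to 12306733). The values were 344, 289 and 281 in bladder, 3817, 3751 and 2992 in intestine, and 8088 and 4230 in lung. Every intestine and lung library exceeded every bladder library, 11.5-fold in intestine (log2 3.52, SE 0.21, adjusted p = 1.60e-06) and 19.2-fold in lung (log2 4.26, SE 0.24, adjusted p = 1.79e-06). The call of lung over intestine (log2 0.74, SE 0.24, adjusted p = 0.0329) rested on the lung library at 8088: without it the difference was 0.27 (adjusted p = 0.204). It was also lost without any 1 of the intestine libraries (adjusted p = 0.0643, 0.0679 and 0.114). Mural cell genes, which mark the muscle cells and pericytes of vessels, were low in bladder too. The 10 listed summed to 11190 to 11515 there, 28578 to 30037 in intestine and 23990 to 27222 in lung. Of the 10, 7 were higher and 1 lower in intestine than in bladder, against 28.7% and 23.3% of all genes tested. In lung 7 were higher and 0 lower than in bladder (19.2% and 21.8%). Cspg4 was 10.7-fold higher in intestine and 10.6-fold in lung, Notch3 15.8-fold and 12.9-fold, and Mcam 8.83-fold and 9.02-fold. The part of mural cell RNA in the Itga8 and Itga7 differences was not tested.

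Itga5, the fibronectin receptor chain (mm39, chromosome 15, 103252713 to 103275190), read 3729, 3374 and 3428 in bladder, 2231, 2268 and 2240 in intestine, and 5815 and 6536 in lung. The order was lung above bladder above intestine with no overlap. Lung was 1.76-fold above bladder (adjusted p = 2.59e-05) and 2.74-fold above intestine (adjusted p = 7.92e-07), and intestine was 1.56-fold below bladder (adjusted p = 3.15e-05). Itga9, whose ligands include tenascin C and SVEP1, read 1525, 1486 and 1450 in bladder, 1548, 1916 and 1588 in intestine, and 5198 and 3755 in lung, which lay above all others. The lung difference was 1.57 (SE 0.14, adjusted p = 2.64e-05) from bladder and 1.398 (SE 0.14, adjusted p = 4.69e-05) from intestine. Between intestine and bladder it was 0.17 (SE 0.12, adjusted p = 0.270).

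Itgav, which pairs with several beta chains to bind vitronectin and to activate latent TGF-beta, read 2154, 2056 and 1741 in bladder, 1752, 1700 and 1659 in intestine, and 1444 and 1019 in lung. Lung was lower than bladder (log2 -0.70, SE 0.14, adjusted p = 0.00380), but not with the deposited scaling undone (log2 -0.19, adjusted p = 0.305). Itgb3, a partner of alpha V, read 342, 248 and 241 in bladder, 669, 703 and 532 in intestine, and 1295 and 661 in lung. It was 2.30-fold higher in intestine (adjusted p = 0.00267) and 3.38-fold higher in lung (adjusted p = 0.000849) than in bladder. Itga2b, the platelet partner of beta 3, was highest in lung with 266 and 215, against 76, 144 and 140 in bladder and 56, 80 and 77 in intestine. Lung exceeded intestine (log2 1.76, SE 0.33, adjusted p = 0.00236), while the call over bladder (adjusted p = 0.0297) was lost without bladder replicate 1 (adjusted p = 0.0677) and without either lung library (adjusted p = 0.121 and 0.0543), and with quantile normalization (adjusted p = 0.0611). Platelet and megakaryocyte genes summed to 203 to 416 in bladder, 64 to 80 in intestine and 187 to 353 in lung. The leading platelet genes did not share an order: Pf4 read 182 to 394 in bladder, 11 to 17 in intestine, and 57 and 60 in lung, Ppbp 0 to 3, 0, and 122 and 42, and Gp9 0 to 6, 19 to 22, and 16 and 9. Their part was not tested.

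Itgb6 and Itgb8, which form TGF-beta activating pairs with alpha V, were low. Itgb6 read 27 to 58 in bladder, 56 to 109 in intestine and 37 and 13 in lung, and lung was below intestine (log2 -1.80, SE 0.52, adjusted p = 0.0225), a call lost without lung replicate 2 (log2 -1.08, adjusted p = 0.166), without intestine replicate 1 or 2 (adjusted p = 0.0661 and 0.0837) and with quantile normalization. Without lung replicate 1 the Itgb6 lung minus intestine difference was -2.52 (adjusted p = 0.00591). Itgb8 read 65 to 118 in bladder, 16 to 64 in intestine and 157 and 134 in lung, and lung exceeded intestine (log2 1.89, SE 0.55, adjusted p = 0.0229), a call lost without either lung library (adjusted p = 0.0773 and 0.0666). Without intestine replicate 1 the Itgb8 lung minus intestine difference was 1.29 (adjusted p = 0.0308). Its intestine libraries also lay below those of bladder without overlap, which was not called (log2 -1.30, SE 0.49, adjusted p = 0.0513). That difference did pass with a pseudocount of 5, quantile normalization or scaling from genes of low read density. It also passed without bladder replicate 2 or intestine replicate 2.

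Chains known from leukocytes were among the lower members, and those of lymphocytes were highest in intestine. Itga4, which pairs with beta 1 or beta 7 on leukocytes and with beta 1 on muscle and neural crest cells, read 72, 35 and 58 in bladder, 601, 506 and 475 in intestine, and 246 and 196 in lung. The 3 organs did not overlap, intestine being 9.79-fold (adjusted p = 8.39e-06) and lung 4.11-fold (adjusted p = 0.000533) above bladder. Itgb7 read 33, 31 and 25 in bladder, 156, 196 and 119 in intestine, and 29 and 109 in lung, higher in intestine than in bladder (adjusted p = 0.00190). Its call below intestine in lung (adjusted p = 0.0494) was lost without lung replicate 1 (log2 -0.49, adjusted p = 0.330) and without each other library except lung replicate 2, where it was -2.37.

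Itgae, whose product pairs with beta 7 on lymphocytes inside epithelia and binds E-cadherin, read 13, 0 and 0 in bladder, 26, 86 and 80 in intestine, and 1 and 0 in lung. Intestine exceeded both (log2 4.58, SE 1.00, adjusted p = 0.00396 and log2 5.35 above lung, adjusted p = 0.00458), and with a pseudocount of 5 the differences were 3.02 for Itgae intestine minus bladder and -3.50 for Itgae lung minus intestine. Of the 5 bladder and lung values, 4 lie under the worth of 3 reads. Without the bladder library at 13 the first difference was 5.85, and without either of the other bladder libraries 3.94. Itgal read 12 to 20 in bladder, 26 to 141 in intestine and 22 and 19 in lung, with a call over bladder (log2 1.90, adjusted p = 0.0185) that was lost without the intestine library at 141 (log2 1.27, adjusted p = 0.0572), without intestine replicate 3, without bladder replicate 2 or 3, or with quantile normalization (log2 1.03, adjusted p = 0.155). Lymphoid genes summed to 229 to 412 in bladder, 2847 to 3171 in intestine and 456 to 779 in lung, with Cd3e and Cd3g at 0 in each bladder library, and their part was not tested.

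The myeloid chains Itgam, Itgax and Itgb2 passed the test in no pair. Itgam read 86, 13 and 22 in bladder, 6, 17 and 33 in intestine, and 4 and 6 in lung (lung minus bladder log2 -2.36, SE 0.85, adjusted p = 0.0520). Itgam did pass for lung against bladder with quantile normalization (adjusted p = 0.0476), scaling from genes of low read density (0.0415), without bladder replicate 2 (0.0320), without intestine replicate 1 (0.0471) and in the fit of those organs alone (0.0443). Itgb2, the shared beta chain of leukocytes, read 115 to 259, 91 to 232 and 99 to 113, and Itgax 0 to 24, 32 to 50 and 7 to 28, in the order bladder, intestine, lung. In bladder replicate 1 Itgam and Itgb2 were highest, and so was the sum of 12 myeloid genes, at 13199 against 8685 and 8278 in the other bladder libraries and 3589 to 4112 in intestine and lung. The part of myeloid RNA was not tested.

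Itgb1 and Itgb5, the abundant beta chains, differed little. Itgb1, the common partner of most alpha chains (mm39, chromosome 8, 129412135 to 129459681), read 8105, 8051 and 7138 in bladder, 6468, 6025 and 6582 in intestine, and 5937 and 6186 in lung. Bladder was highest without overlap, with intestine at -0.29 (SE 0.06, adjusted p = 0.00361) and lung at -0.36 (SE 0.07, adjusted p = 0.00294) from it. Without the deposited scaling it stood at 0.11 and 0.16, where the median of all genes was 0.45 and 0.48. Quantile normalization turned the signs (0.12 and 0.12), while equal totals and scaling from genes of low read density kept both calls. Itgb5, which binds vitronectin with alpha V, read 6025, 6181 and 5646 in bladder, 4231, 3996 and 4290 in intestine, and 4378 and 4480 in lung. Its differences from bladder of -0.51 (SE 0.05) and -0.43 (SE 0.06) became -0.12 and 0.09 with the scaling undone and -0.12 and 0.03 with quantile normalization, and both calls were kept in the other scalings. Genes as densely read as these 2 differed by -0.40 and -0.42 at the median.

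**Figure D4:**
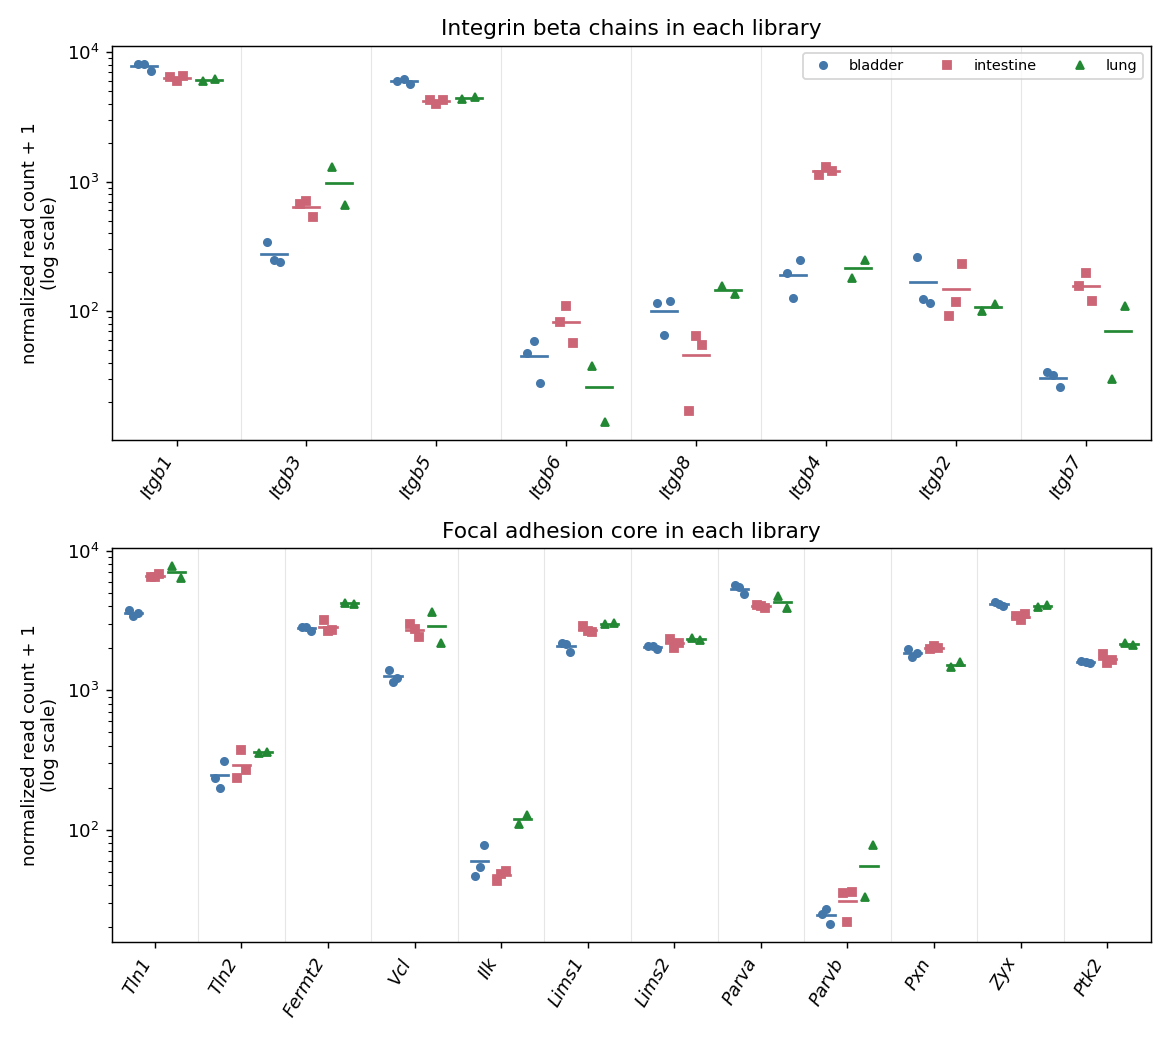
Value + 1 (y axis, log scale) of the 8 integrin beta chains (top) and the 12 adhesion core genes (bottom); points are libraries and bars organ means. Itgb4 is high in the 3 intestine libraries (1116 to 1288), Tln1 and Vcl are low in the 3 bladder libraries, and Ilk and Parvb lie under 130.

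In the adhesion core, talin 1 and vinculin were higher in intestine and lung than in bladder, and kindlin 2 and focal adhesion kinase were highest in lung. Tln1, which activates integrins and links them to actin (mm39, chromosome 4, 43531519 to 43562691), read 3780, 3407 and 3554 in bladder, 6481, 6520 and 6767 in intestine, and 7749 and 6362 in lung. It was 1.84-fold higher in intestine (log2 0.88, SE 0.08, adjusted p = 1.22e-05) and 1.96-fold higher in lung (log2 0.97, SE 0.08, adjusted p = 2.37e-05). Vcl, encoding vinculin (mm39, chromosome 14, 20979466 to 21083744), read 1388, 1154 and 1232 in bladder, 2965, 2743 and 2425 in intestine, and 3643 and 2183 in lung. The differences were 2.15-fold (adjusted p = 0.000466) and 2.25-fold (adjusted p = 0.00103) over bladder, with intestine and lung overlapping. Of the exon bases of Vcl, 25.5% lie in exons of Ap3m1 as well.

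Fermt2, which encodes kindlin 2, the co-activator beside talin, read 2826, 2866 and 2664 in bladder, 3168, 2663 and 2695 in intestine, and 4247 and 4145 in lung. Only the lung libraries stood apart, by 0.59 (SE 0.08, adjusted p = 0.000458) from bladder and 0.57 (SE 0.08, adjusted p = 0.000605) from intestine. Ptk2, focal adhesion kinase, read 1624, 1607 and 1582 in bladder, 1820, 1574 and 1642 in intestine, and 2180 and 2119 in lung, higher in lung than in bladder (log2 0.42, SE 0.08, adjusted p = 0.00229) and intestine (log2 0.36, SE 0.08, adjusted p = 0.00574). With the scaling undone or quantile normalization, Fermt2 and Ptk2 were also higher in intestine than in bladder.

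Promoter windows of RefSeq (GRCm38.p6, 250 bases before to 50 after a start) were listed for 25 of the 37 members, 30 windows in all. The CArG box, the motif of serum response factor that many smooth muscle genes carry, was in 3 of them (10%), against 535 of 32851 windows of all genes (1.63%). Those were the windows of Vcl, Fermt2 and 1 of 2 windows of Itgb6. The windows of Vcl and Fermt2, core genes that differed between organs, are shown with that of Itga8, which has no such match, and the CArG box in capitals.
Vcl (GRCm38.p6, chr14:20929148-20929447, plus strand): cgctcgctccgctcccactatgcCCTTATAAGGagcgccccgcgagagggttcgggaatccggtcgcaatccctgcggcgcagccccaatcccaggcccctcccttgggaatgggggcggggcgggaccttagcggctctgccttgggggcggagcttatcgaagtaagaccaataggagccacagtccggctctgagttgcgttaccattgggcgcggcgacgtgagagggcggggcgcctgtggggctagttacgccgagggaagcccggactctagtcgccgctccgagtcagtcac
Fermt2 (GRCm38.p6, chr14:45530016-45530315, minus strand): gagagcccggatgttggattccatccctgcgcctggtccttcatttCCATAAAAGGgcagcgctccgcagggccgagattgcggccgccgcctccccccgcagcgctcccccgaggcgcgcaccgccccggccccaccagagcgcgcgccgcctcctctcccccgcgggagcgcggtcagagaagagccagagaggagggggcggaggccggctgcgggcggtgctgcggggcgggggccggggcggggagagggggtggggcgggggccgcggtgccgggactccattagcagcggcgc
Itga8 (GRCm38.p6, chr2:12301895-12302194, minus strand): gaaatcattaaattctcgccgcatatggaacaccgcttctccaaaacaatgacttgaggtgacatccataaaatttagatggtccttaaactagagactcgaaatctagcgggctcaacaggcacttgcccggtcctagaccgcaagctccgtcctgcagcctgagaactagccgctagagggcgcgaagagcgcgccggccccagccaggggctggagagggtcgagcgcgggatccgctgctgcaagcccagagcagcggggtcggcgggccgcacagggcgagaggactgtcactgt
The box begins 227 bases before the start in Vcl and 204 before it in Fermt2. On either strand, GGGCGG was in 15 of 30 member windows (50%, all windows 35.7%), CATTCC, the motif of TEAD factors, in 3 (10%, all 14.7%), and TATAAA in 1 (3.33%, all 13.6%). A CArG box can hold TATAAA, but none of these 3 windows has it. A match is a run of letters and not a measured binding site, and its absence says only that these letters are not in this window.

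The PINCH and parvin partners of ILK were abundant as Lims1, Lims2 and Parva and scarce as Parvb. Lims1 (PINCH1) read 2188, 2163 and 1867 in bladder, 2904, 2657 and 2617 in intestine, and 2983 and 3022 in lung, higher in intestine (log2 0.40, SE 0.08, adjusted p = 0.00190) and lung (log2 0.54, SE 0.09, adjusted p = 0.000931) than in bladder. Lims2 (PINCH2) read 1985 to 2090, 2024 to 2318 and 2289 to 2389 and passed the test in no pair, but it was higher in both organs than in bladder with equal totals, quantile normalization or the scaling undone. Parva read 4876 to 5665 in bladder, 3909 to 4108 in intestine and 4773 and 3869 in lung. Its calls of lower in intestine (log2 -0.41, SE 0.09, adjusted p = 0.00295) and lung (log2 -0.31, SE 0.10, adjusted p = 0.0263) were lost with the scaling undone, where they were -0.02 and 0.20. They were lost with quantile normalization as well, and the lung call also with equal totals and without bladder replicate 1, bladder replicate 2 or lung replicate 2. Parvb, known from heart and skeletal muscle, read 20 to 26, 21 to 35, and 32 and 77, and passed the test in no pair as reported. It was called higher in lung than in bladder with the scaling undone (limma adjusted p = 0.0130), and than in intestine with quantile normalization (adjusted p = 0.0168).

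Ilk itself had low values. It read 46, 53 and 77 in bladder, 42, 47 and 50 in intestine, and 109 and 127 in lung. Of its exon bases 89.7% lie in exons of Taf10 or Rrp8, and whether the counting dropped reads that fall in more than 1 gene is not given in the sources used here. It was called higher in lung (adjusted p = 0.0258 over bladder and 0.00803 over intestine), and the first call was lost without bladder replicate 1 (adjusted p = 0.0711), bladder replicate 2 (0.0648) or lung replicate 2 (0.112).

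The remaining scaffold genes are Pxn, Zyx and Tln2. Pxn, paxillin, read 1963, 1723 and 1844 in bladder, 1985, 2066 and 2013 in intestine, and 1467 and 1591 in lung, lower in lung than in intestine (log2 -0.40, SE 0.08, adjusted p = 0.00309). Its call of lower in lung than in bladder (log2 -0.27, adjusted p = 0.0227) turned to 0.24 (adjusted p = 0.0667) with the scaling undone. It was also lost with equal totals, quantile normalization, the replicate block and without bladder replicate 1, bladder replicate 3 or lung replicate 1. Between intestine and bladder Pxn was not called as reported. It was called higher in intestine with the scaling undone, equal totals or quantile normalization (limma adjusted p = 0.00101, 0.0286 and 0.00828). Zyx, the zyxin gene of tension-bearing sites, read 4280, 4171 and 4043 in bladder, 3430, 3179 and 3519 in intestine, and 3960 and 4110 in lung. Its call of lower in intestine than in bladder (log2 -0.30, SE 0.06, adjusted p = 0.00155) turned to 0.09 with the scaling undone and 0.04 with quantile normalization. Zyx was also higher in lung than in intestine (log2 0.26, SE 0.06, limma adjusted p = 0.0101), a call kept in each other scaling. Tln2, the second talin, read 198 to 310, 235 to 375, and 357 and 359, and passed the test in no pair as reported. For lung against bladder Tln2 did pass with the scaling undone (log2 1.07, limma adjusted p = 0.0139) and with equal totals (log2 0.70, adjusted p = 0.0478). The same difference passed without bladder replicate 3 (adjusted p = 0.0474).

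Paralogs were also compared as ratios within a library, in which a constant per library cancels except for the added 1. Quantile normalization is not such a constant, and the ratios were not tested under it. The log2 ratio of Lims2 to Lims1 was -0.07, -0.06 and 0.09 in bladder, -0.33, -0.39 and -0.26 in intestine, and -0.32 and -0.40 in lung, so the bladder libraries were highest without overlap. An exact permutation test over 560 assignments of the 8 libraries gave p = 0.0179, or 0.0536 adjusted over the 3 pairs (the smallest possible raw p was 0.00357). Tln2 to Tln1 averaged -3.87, -4.52 and -4.29 in bladder, intestine and lung (exact permutation p = 0.1, adjusted 0.1), and Parvb to Parva -7.79, -7.05 and -6.41 (exact permutation p = 0.0929, adjusted 0.1). With 1 library left out, the adjusted exact p ranged from 0.0429 (without lung replicate 1, which leaves lung with 1 library) to 0.143 for Lims2 to Lims1 and from 0.0429 (the same library) to 0.248 for Parvb to Parva. For Tln2 to Tln1 it ranged from 0.0571 to 0.257.

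Across the 3 organs, 9 members were higher in both intestine and lung than in bladder (11.5% of all genes tested): Itga1, Itga3, Itga4, Itga7, Itga8, Itgb3, Tln1, Vcl and Lims1. All 9 kept this with any 1 library left out and with equal totals or quantile normalization, and 8 did with scaling from genes of low read density, which lost Lims1. Higher in intestine than in both other organs were 7 (15.4% of all genes): Itga2, Itga4, Itga6, Itga7, Itgae, Itgb4 and Itgb7. Itgb7 lost this without any 1 library except lung replicate 2 and in each of the 4 other scalings, Itga4 without lung replicate 2, and Itga2 with quantile normalization. Highest in lung in the same sense were 7 (6.87%): Itga2b, Itga5, Itga8, Itga9, Ilk, Fermt2 and Ptk2. Itga5, Itga9, Fermt2 and Ptk2 kept this with any 1 library left out and in each scaling. Lower in both intestine and lung than in bladder were 4 (13.5%), namely Itga11, Itgb1, Itgb5 and Parva, of which 4 kept this with scaling from genes of low read density and with the replicate block, 3 with equal totals (not Parva), 1 with quantile normalization (Itga11) and 0 with the scaling undone. Parva lost it without bladder replicate 1, bladder replicate 2 or lung replicate 2. Itgam, Itgax, Itgb2, Tln2, Parvb and Lims2 passed in no pair as reported, though Itgam, Tln2, Parvb and Lims2 did so in some alternatives.

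The lung libraries differed from each other in several members. Replicate 1 was above replicate 2 by 1.91-fold in Itga8, 1.96-fold in Itgb3, 1.67-fold in Vcl and 1.53-fold in Itga3, while Itga5, Itgb1 and Itgb5 were slightly lower in it (0.890, 0.960 and 0.977 of replicate 2). In all 21 of 37 members were higher in replicate 1, against 44.5% of all genes tested. Smooth muscle genes summed to 39209 in replicate 1 and 38293 in replicate 2, mural genes to 27222 and 23990, and fibroblast genes to 35943 and 40578.

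Ligands of these receptors also differed between organs. Of 48 integrin ligand genes tested, 12 were higher and 28 lower in intestine than in bladder (28.7% and 23.3% of all genes tested), 12 higher and 27 lower in lung than in bladder (19.2% and 21.8%), and 11 higher and 16 lower in lung than in intestine (15.9% and 23.6%). The balance depended on the scaling: quantile normalization gave 18 and 18, 19 and 18, and 13 and 17, the scaling undone 18 and 17, 21 and 17, and 14 and 12, and scaling from genes of low read density 10 and 31, 12 and 28, and 16 and 12. Npnt, which encodes the alpha 8 ligand nephronectin, read 251, 287 and 213 in bladder, 1206, 1376 and 1334 in intestine, and 5548 and 4014 in lung, in the same order of organs as Itga8. Lung exceeded bladder by 4.24 (SE 0.16, adjusted p = 2.78e-07). Svep1, a ligand of alpha 9, read 4781, 4976 and 4383 in bladder, 2041, 2686 and 2356 in intestine, and 314 and 398 in lung, where Itga9 was highest (lung minus bladder log2 -3.73, SE 0.13, adjusted p = 1.91e-07). Tnc, another alpha 9 ligand of the list, named after its values were seen, was highest in lung with 7763 and 8308 (lung minus bladder log2 0.49, adjusted p = 0.00137).

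Laminin chains divided as well. Lama5 was higher in intestine (log2 3.05, SE 0.11, adjusted p = 1.84e-07) and lung (log2 2.65, SE 0.13, adjusted p = 7.77e-07) than in bladder, as were Itga3 and Itga7. Lamc1 was lower in both (log2 -1.30 and -1.69, adjusted p = 4.63e-06 and 3.60e-06), and Lamb1 was lower in lung than in bladder (log2 -2.24, adjusted p = 3.73e-07). Cdh1, the E-cadherin bound by the Itgae product, read 303, 252 and 481 in bladder, 2732, 2684 and 2450 in intestine, and 64 and 35 in lung. Cdh1 is also on the epithelial list, and the part of epithelial RNA was not tested. Some other ligand genes are on the fibroblast or endothelial lists as well. Vcam1, a ligand of alpha 4, was highest in bladder (4244, 4066 and 3966), where Itga4 was lowest, and read 963 to 1120 in intestine and 1861 and 2336 in lung. Madcam1, the ligand of alpha 4 with beta 7, also named after its values were seen, read 0, 1 and 0 in bladder, 736, 842 and 814 in intestine, and 5 and 37 in lung, highest where Itga4 and Itgb7 were highest. Spp1, osteopontin, was low in intestine (111 to 188) against 1246 to 1871 in bladder and 2125 and 2288 in lung.

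Of 54 further adhesion adaptors and regulators, 23 were higher and 9 lower in intestine than in bladder (28.7% and 23.3% of all genes tested), 22 and 13 in lung than in bladder (19.2% and 21.8%), and 17 and 11 in lung than in intestine (15.9% and 23.6%). With scaling from genes of low read density these were 20 and 15, 21 and 13, and 25 and 8, and with quantile normalization 26 and 7, 25 and 9, and 20 and 10. The counts moved most with the deposited scaling undone, to 37 and 4, 37 and 5, and 21 and 9. Actn1, the alpha actinin that crosslinks actin at adhesions, read 841, 683 and 722 in bladder and 3602 and 4421 in lung (log2 2.42, SE 0.12, adjusted p = 9.04e-07). Arhgef7, the exchange factor of the paxillin and GIT complex, was higher in intestine (log2 1.84) and lung (log2 2.07) than in bladder (adjusted p = 8.22e-07 and 1.26e-06). Fermt1, the kindlin of epithelia, read 13, 19 and 31 in bladder, 1259, 1269 and 1304 in intestine, and 2 and 3 in lung, highest in intestine as the epithelial sum was, whose part was not tested. Fyn, a kinase of the Src family, was lower in intestine (log2 -0.72, SE 0.07, adjusted p = 3.80e-05) and lung (log2 -1.25, SE 0.08, adjusted p = 4.93e-06) than in bladder. Between lung and intestine, Enah (log2 1.31), Lpp (log2 0.73) and Nexn (log2 1.16) were higher in lung (adjusted p = 4.00e-05, 4.75e-05 and 0.000229).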

How the data were processed

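Per the labels' protocols, at most 10 ng of RNA per library was amplified with SMART-Seq v4, a full-length cDNA kit that does not mark the strand, so overlapping genes cannot be told apart. Listed, with no role or order, are featureCounts 2.0.4, STAR 2.7.10a, DESeq2 1.36.0, Trimmomatic 0.39 and Picard 3.0.0, with the build mm39, per the submitters' processing notes. The deposited score values are whole numbers whose gaps fit rounded multiples of 1 constant per library, which was read from the values. That constant, the value of 1 read (0.822 to 1.27), was estimated from the spacing and gave the reconstructed reads, used for depth, read density and 1 alternative. The estimate and the test were tested on simulated data.

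The test was limma 3.58.1 (R 4.3.3) with an intensity trend on log2(value + 1), 1 mean per organ, over the 18097 genes that reached 10 in 2 or more libraries, adjusted by Benjamini-Hochberg. It includes no replicate block, since nothing says what the shared numbers mean. Exon lengths and overlaps are from GENCODE M21 (96.8% of gene IDs), on another assembly. Ratios used exact permutation tests (Python 3.11.15). Members, lists and tests were chosen with earlier results of these data known. All 37 members are accounted for. Of the ligand and adaptor lists the rule named up to 3 genes of smallest p per pair and direction without overlap, and a selection of these is given. Marker lists are given as sums, with genes by name among the first 3 of a list. The mesothelium list summed to 3270 to 5150 in bladder, 3789 to 4230 in intestine and 532 to 1087 in lung.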

Additional observations from a re-analysis of the deposited data

How the results depend on the processing

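Counts of members called, by alternative: with the deposited scaling undone the lower ones were 1 for intestine minus bladder (6 as reported) and 1 for lung minus bladder (6 as reported), and with quantile normalization 3 for lung minus bladder. With scaling from genes of low read density, 15 members were higher in lung than in intestine (9 as reported). Equal totals, a pseudocount of 5, no filter and fits of the 2 organs compared kept each count within 1.5 times. With the replicate block the F test called 30 members (31 without it) and the pairs 15 and 6, 15 and 5, and 9 and 11. Deviations of same-numbered libraries correlated at -0.03 to 0.06. The deviations of the 2 lung libraries mirror each other by construction, and pairs are few, so this cannot exclude a shared animal or batch. Leaving out each library in turn gave 27 to 30 for the F test, 14 to 15 higher and 6 to 7 lower for intestine minus bladder, 13 to 17 and 4 to 7 for lung minus bladder, and 8 to 11 and 8 to 10 for lung minus intestine. Where a lung library was left out, the other was assumed to vary like the other organs.

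The range of the organ means of the log2 paralog ratio, with 1 library left out, was 0.297 to 0.388 for Lims2 to Lims1 (0.348 as reported), 0.734 to 2.15 for Parvb to Parva (1.38) and 0.468 to 0.847 for Tln2 to Tln1 (0.647).

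Log2 differences that passed the test as reported or in the alternative, and that turned sign with the deposited scaling undone and then with quantile normalization, were Itgb1 for intestine minus bladder (0.11 and 0.12) and lung minus bladder (0.16 and 0.12), Itgb5 for lung minus bladder (0.0865 and 0.0269), Parva for lung minus bladder (0.20 and 0.10), Zyx for intestine minus bladder (0.0911 and 0.0374) and, not called as reported, Zyx for lung minus bladder (0.47 and 0.34). Pxn for lung minus bladder turned with the scaling undone only (0.24). Undoing the scaling moves all genes alike by construction; the cause of the turns with quantile normalization was not tested.

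Without molecular identifiers, reads copied by PCR cannot be counted as molecules. Low members (Itgae, Itgal, Itgam, Itgax, Itga10, Parvb) rest on few reads.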
